A study of Mus musculus with 23 samples.

Results

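The nuclear-encoded subunits of respiratory complexes I, II and III were followed in TM4 cells, a permanently growing line of mouse Sertoli cells, after treatment with plasticizers. The members were chosen by gene symbol: Nduf followed by a, b, c, s or v and a number, Sdha to Sdhd, and Cyc1, Uqcrb, Uqcrc1, Uqcrc2, Uqcrfs1, Uqcrh, Uqcrq, Uqcr10 and Uqcr11. This gave 49 genes with 63 probes out of 20145 named genes on the array, and 12 of them had more than 1 probe. Ndufb1 meets the rule but had no matched probe. Ndufa4 also meets it and is kept among the other accessory genes of complex I, although it is now counted with complex IV. All 49 genes passed the filter on dim probes in every comparison. Their brightest probes were well above background on all 23 arrays, except that Ndufb2 had no value on DOS replicate 3. In the comparisons with DOS, Ndufb2 was tested through the other group.

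Cells were exposed for 48 hr to 100 μM of 1 compound dissolved in 1% DMSO, or to 1% DMSO alone, so that every group carried the vehicle. MEHP is the active metabolite of the phthalate DEHP, DINCH is a commercial replacement with a cyclohexane dicarboxylate core, DOM is a dioctyl maleate, DOS is a dioctyl succinate and BDB is a butanediol dibenzoate. Every group had 4 arrays except DOS, which had 3, and the replicates are described as biological. Each RNA was hybridized to its own 1-colour array, and the 23 arrays lay on 3 slides. The 75th percentile of the signal ranged from 204.6 to 350.7, and 43.4% to 52.2% of the spots were well above background. Precision depended on how many arrays each group had and on the spread between them. Levels below are log2 signals relative to the 75th percentile of the array, and changes are differences between group means on that scale. Because RNA came from whole cultures, less transcript per cell and fewer cells carrying it cannot be told apart. Of 13 Sertoli cell markers, 5 were above background on all arrays (Gata4, Dmrt1, Inha and Kitl among them) and 3 on none (Wt1, Fshr and Cldn11), so the line held part of the labelled cell type's marker set. Markers of other testis cells were also above background on all arrays: 1 of 5 for Leydig cells (Cyp17a1), 1 of 6 for germ cells (Prm1), 2 of 4 for peritubular myoid cells (Acta2 and Cnn1), 2 of 4 for endothelium (Kdr and Pecam1) and 1 of 3 for macrophages (Csf1r). The marker check was therefore not specific to Sertoli cells.

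Complex I oxidizes NADH and complex II oxidizes succinate, and both pass electrons to ubiquinone in the inner mitochondrial membrane. Complex III carries the electrons on from ubiquinol to cytochrome c. Complexes I and III pump protons as they do so, and the proton gradient drives ATP synthesis. The subunits measured here are encoded in the nucleus and imported into mitochondria, where they join the subunits made from mitochondrial DNA. Sertoli cells are known for a strongly glycolytic metabolism that supplies lactate to germ cells, while they oxidize fatty acids in their own mitochondria. Transcription of respiratory genes is classically tied to NRF1, to ETS-family factors such as GABPA and to YY1, whose binding motifs lie close to many of their start sites.

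The promoter sequences of the members are shown first, because the genes are known to be co-regulated through these motifs and because the members described below moved by unequal amounts. A window of 250 bases before and 50 after the start was on hand for 40 of the 49 genes (RefSeq, GRCm38.p6). It was not on hand for 9 genes, among them Cyc1, Uqcrb, Uqcrc2, Uqcrq and Sdhc. Both strands were searched for GCGCANGCG (NRF1), CCGGAAG (ETS) and AAGATGGC (YY1), and a gene was counted once for each motif however many matches it held. The NRF1 letters were in 12 of the 40 windows (30%) against 7.03% of all 27025 genes with a window, the ETS letters in 8 (20%) against 9.93%, and the YY1 letters in 7 (17.5%) against 3.19%. Other spellings were also tried, and the shorter CGGAAG was in 12 member windows (30%, all genes 18.8%) and the longer AAGATGGCG in 5 (12.5%, all genes 1.64%). Of the 6 genes lower with DOM by their brightest probe that had a window, 3 held at least 1 of the motifs (Ndufs4, Sdhd and Uqcrc1), against 24 of the 40 member windows (60%). A match is a description of letters and does not show binding. The sequences below are the bases directly before the start, 5′ to 3′ on the strand of the gene, in lower case with motif letters in capitals. Ndufa12, Sdhd and Uqcrfs1 were lower with DOM, Ndufa6 had the highest change with DOM, and Uqcr11 and Ndufa8 show the ETS and NRF1 letters in genes that passed no test. The run for Sdhd stops after 51 bases, where the annotation of the neighbouring gene Timm8b begins, and the others hold 80 bases.
Ndufa12, chr10:94198955-94199034, plus strand: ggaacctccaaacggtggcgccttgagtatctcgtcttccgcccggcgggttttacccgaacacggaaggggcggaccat
Sdhd, chr9:50603850-50603900, minus strand: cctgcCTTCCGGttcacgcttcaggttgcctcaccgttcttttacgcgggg
Uqcrfs1, chr13:30545317-30545396, minus strand: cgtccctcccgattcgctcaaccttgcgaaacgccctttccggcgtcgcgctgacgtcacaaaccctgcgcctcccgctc
Ndufa6, chr15:82354292-82354371, minus strand: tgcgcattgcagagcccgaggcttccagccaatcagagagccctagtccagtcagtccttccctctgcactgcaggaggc
Uqcr11, chr10:80406822-80406901, minus strand: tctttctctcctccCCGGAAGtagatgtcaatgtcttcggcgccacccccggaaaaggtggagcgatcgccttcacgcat
Ndufa8, chr2:36049339-36049418, minus strand: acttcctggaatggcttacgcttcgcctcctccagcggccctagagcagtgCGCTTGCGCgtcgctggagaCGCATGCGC
The printed bases of Ndufa12 and Uqcrfs1, and their whole windows, held none of these 3 motifs, although CGGAAG was in the Ndufa12 run. The NRF1 letters of Ndufa6 lay after its start, those of Uqcr11 ran across the start, and those of Sdhd lay within the span of Timm8b, so they are not in capitals here.

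The main fit used the 75th percentile shift and only the groups compared, with no block and no variance trend. In that fit DOM was the single compound of the 5 with members past the test against DMSO. Other fits on the same scale also let DINCH members pass: 3 when slides were blocked, 2 under a variance trend and 7 in a joint fit of every group. Over all genes 1770 passed with DINCH in the main fit, against 2358, 2175 and 3129 in these fits, in the same order. The joint fit let 1 BDB member pass as well, Uqcrh, where 373 of all genes passed, against 0 in the main fit. With the replicate number as a block 2 members also passed with DINCH, as given below. A gene is said to have passed when limma gave 1 of its probes an adjusted p below 0.05, and to be called when the change was also more than 1.5-fold. With DOM against DMSO 1 of the 49 members was called (2.04%), against a background of 20.5% of all 12005 tested genes, and that gene was Uqcrq. At any fold 12 members passed (24.5%, background 38.7%). Of these 11 were lower (22.4%, background 19.8%) and 1 was higher (2.04%, background 18.9%). The share of lower members was therefore near that of all genes, while fewer members were called or higher than the background. At an unadjusted p below 0.05 there were 21 members (42.9%, background 50.9%). On 14 members every DOM array lay below every DMSO array (28.6%, background 20.5%), and on none did every DOM array lie above.

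**Figure D1:**
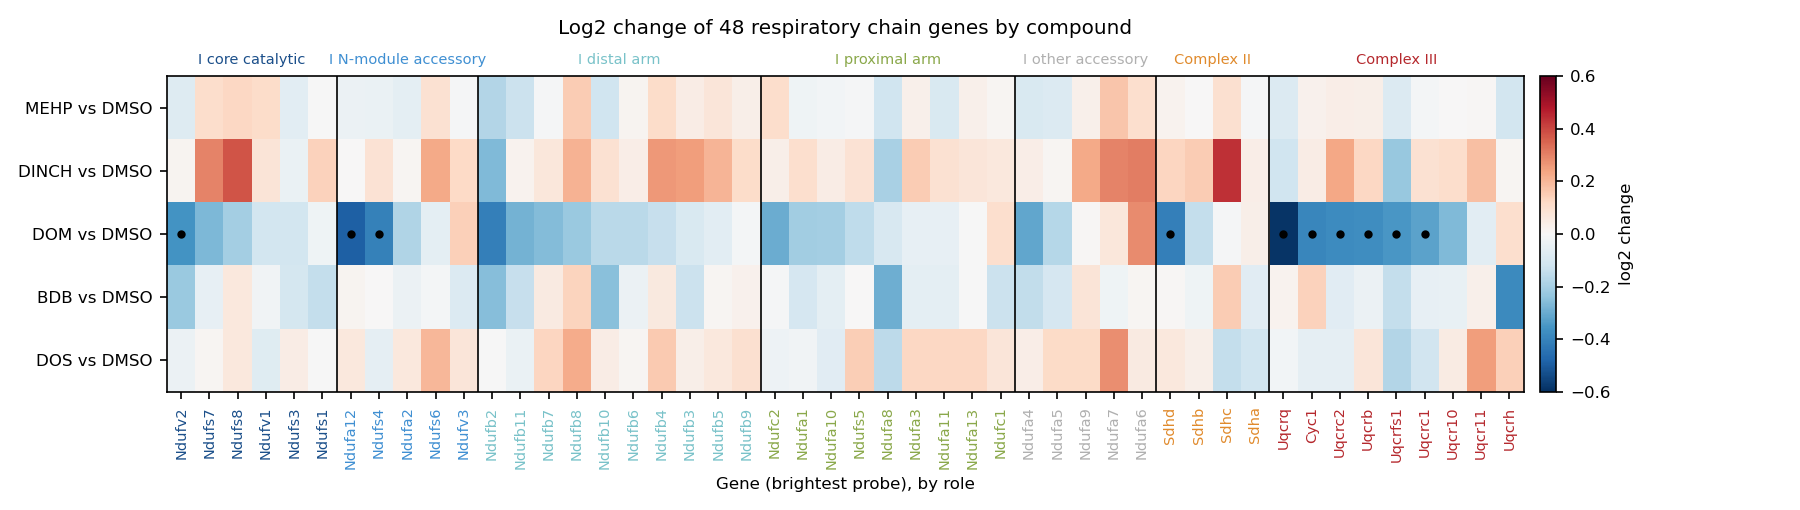
Log2 change of each of 48 genes (columns, ordered by role and then by the change with DOM) with each compound against DMSO (rows), on the 75th percentile scale. Blue is lower and red is higher than DMSO, and black dots mark brightest probes with an adjusted p below 0.05, which occur only in the DOM row (10 genes, 6 of them in complex III).

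The direction of the members as a group depended on how the arrays were scaled. The median change of the 49 members with DOM was -0.16, against -0.03 for all tested genes, and 42 of 49 lay below 0 (85.7%, background 52.8%). After quantile normalization the median was 0.03, the same as that of all genes (0.03), with 24 of 49 below 0. All 49 members were among the brightest 3000 of the 12001 tested genes. The median change with DOM was -0.09 over those 3000 genes, and -0.05, 0.04 and 0.01 over the sets of about 3000 that were dimmer, from the dimmest up, while after quantile normalization it was 0.03 over the brightest 3000. The part of brightness in the members' shift was not tested. The statements on single genes below are therefore given with their value under both scalings. The members' median on each array, relative to the DMSO mean, ran from -0.29 to -0.06 with DOM and from -0.09 to 0.12 with DMSO, so that the arrays of these groups overlapped.

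**Figure D2:**
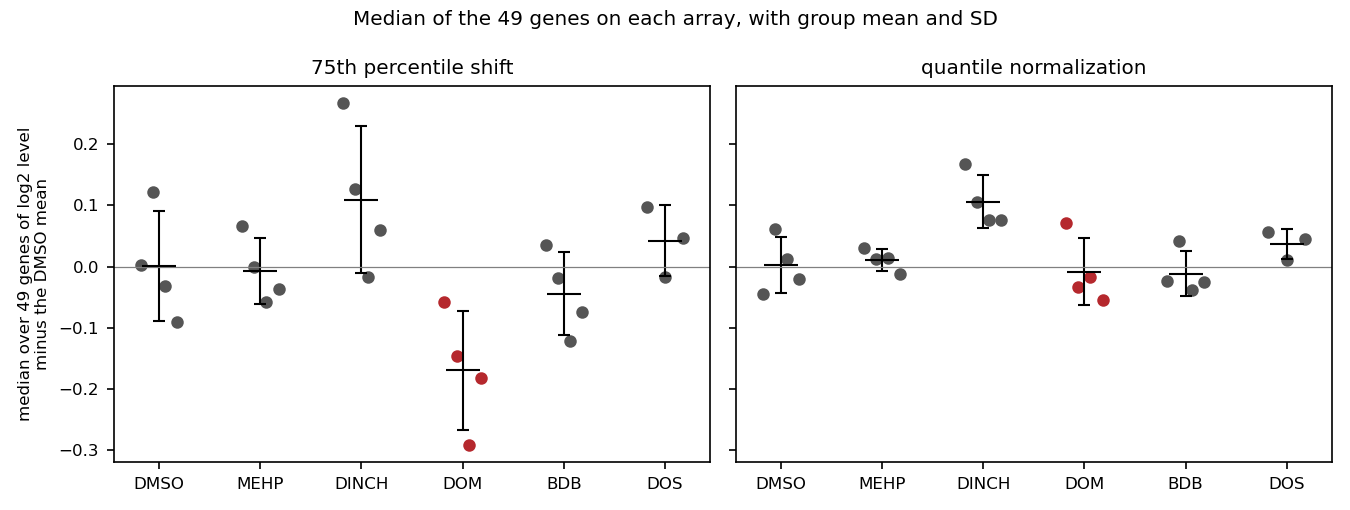
Median over the 49 genes of the log2 level minus the DMSO mean, for each array (points) with the mean and SD of each group (bars), under the 75th percentile shift (left) and quantile normalization (right). DOM arrays lie from -0.29 to -0.06 on the left and from -0.05 to 0.07 on the right. On the right their range spans that of the DMSO arrays (-0.04 to 0.06).

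Complex III held 6 of the 11 members that passed as lower with DOM. Of its 9 genes 6 passed, all lower, where 19.8% of all genes passed as lower, and 8 of 9 lay below 0, as did 52.8% of all genes. The median of the 9 was -0.35, and it stayed below 0 after quantile normalization (-0.22, with 5 lower and 1 higher past the test, where 17.3% of all genes passed as lower and 22.9% as higher). With 9 genes this is a description, and the difference between the complexes was not tested.

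Uqcrq, a small subunit next to cytochrome b, had the lowest change of all members. Its levels were 8.27, 8.57, 8.24 and 8.21 on the DMSO arrays and 7.94, 7.73, 7.65 and 7.62 on the DOM arrays. The groups did not overlap, and the highest DOM array lay below the lowest DMSO array. The change was -0.59 ± 0.12 (SE, 4 against 4 arrays), with an adjusted p in limma of 0.0059. A second probe of Uqcrq fell by 0.77 ± 0.14 (adjusted p = 0.0040, limma). After quantile normalization the brightest probe stood at -0.37 (adjusted p = 0.017, limma), under the 1.5-fold limit. Within the slides the change of Uqcrq was -0.44, -0.75 and -0.59, lower on each of the 3.

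Cyc1 encodes cytochrome c1, the heme subunit that hands electrons to cytochrome c. It measured 6.35, 6.21, 6.25 and 6.14 with DMSO and 5.82, 5.93, 5.82 and 5.81 with DOM. All DOM arrays lay below all DMSO arrays, with a change of -0.39 ± 0.09 and an adjusted p in limma of 0.010, but after quantile normalization the change was -0.22 (adjusted p = 0.078, limma). Uqcrfs1, the Rieske iron-sulfur protein that takes the electron from ubiquinol, stood at 5.56, 5.43, 5.41 and 5.37 with DMSO and at 5.17, 5.01, 5.08 and 5.10 with DOM. It changed by -0.35 ± 0.09, or by -0.25 after quantile normalization, and passed under both scalings.

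The core proteins Uqcrc1 and Uqcrc2, which form the matrix-facing part of complex III, were also lower. Uqcrc1 measured 4.48, 4.42, 4.41 and 4.47 with DMSO against 4.15, 4.14, 4.05 and 4.15 with DOM, a narrow spread within both groups. Its change was -0.32 ± 0.08 (adjusted p = 0.016, limma) and -0.23 after quantile normalization (adjusted p = 0.045, limma). Uqcrc2 measured 5.54, 5.43, 5.37 and 5.39 with DMSO against 5.191, 5.037, 4.979 and 5.004 with DOM. Its change was -0.38 ± 0.09, and -0.28 after quantile normalization, and it passed under both. Uqcrb, another small subunit, was named after its values were seen, because it also passed. It had 3 probes, which changed by -0.37, -0.44 and -0.47, and each passed. After quantile normalization the brightest of them stood at -0.20 (adjusted p = 0.085, limma), and Uqcrb passed through another.

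The remaining members of complex III did not pass. Uqcr10, named after its values were seen, changed by -0.26 ± 0.13 (adjusted p = 0.15, limma) and Uqcr11 by -0.06 ± 0.14. Uqcrh, the acidic hinge protein that docks cytochrome c, measured 6.88 to 7.22 with DMSO and 6.95 to 7.20 with DOM, a change of 0.10 ± 0.11, and the groups overlapped. After quantile normalization Uqcrh stood at 0.35 and passed as higher (adjusted p = 0.020, limma).

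**Figure D3:**
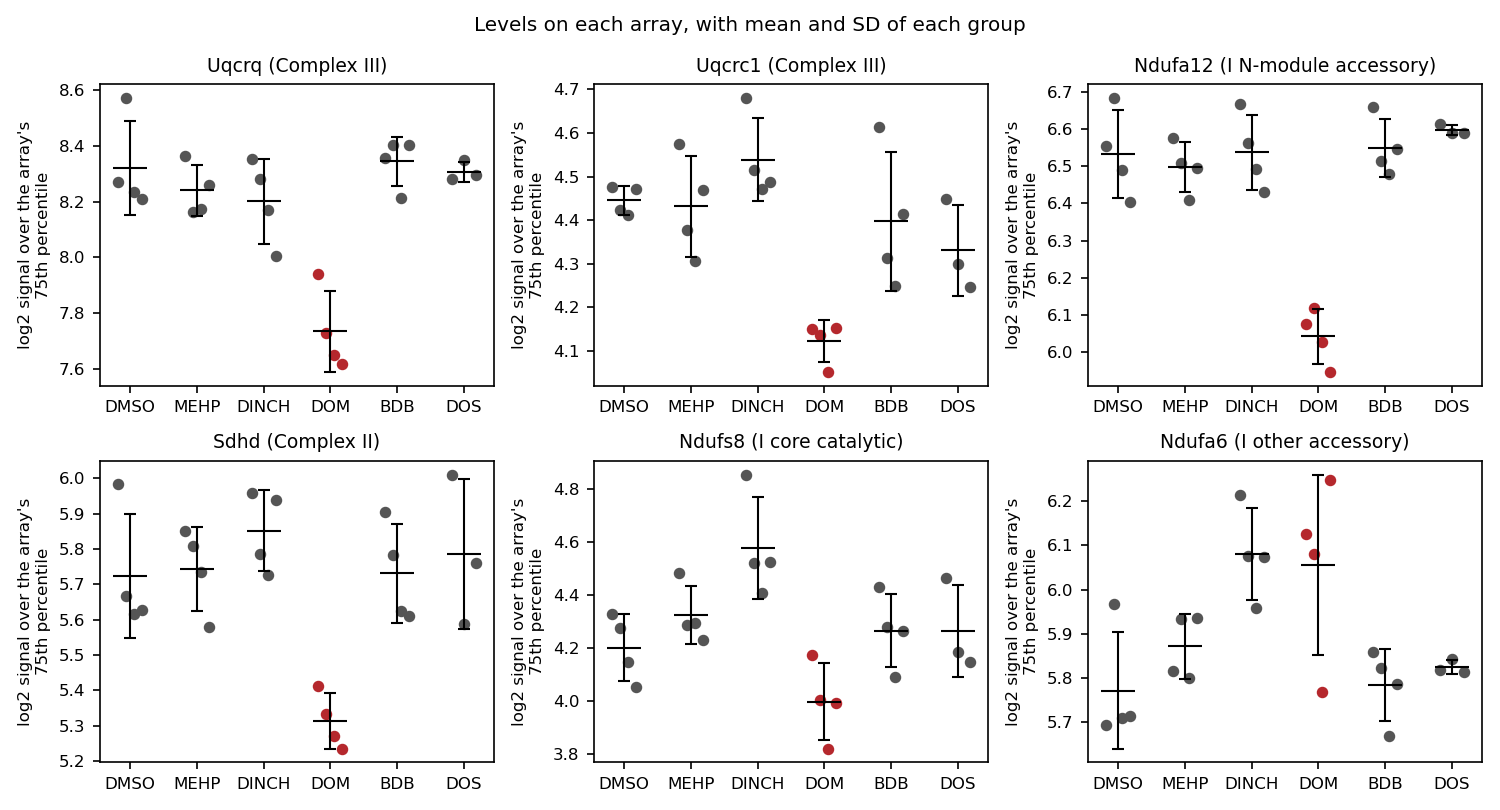
Log2 level over the array's 75th percentile on each array (points, DOM in red) with the mean and SD of each group (bars) for Uqcrq, Uqcrc1, Ndufa12, Sdhd, Ndufs8 and Ndufa6. For the first 4 genes all 4 DOM arrays lie below all arrays of the other groups, for example Ndufa12 between 5.95 and 6.12 against 6.40 to 6.68 with DMSO; Ndufs8 and Ndufa6 are highest on average with DINCH, and the DOM arrays of Ndufa6 spread from 5.77 to 6.25.

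The 3 genes of complex I that passed as lower by their brightest probe with DOM, Ndufa12, Ndufs4 and Ndufv2, encode subunits of the peripheral arm, which holds the NADH-binding site. Ndufa12, an accessory subunit of that arm, measured 6.55, 6.68, 6.49 and 6.40 with DMSO and 6.08, 6.12, 6.03 and 5.95 with DOM, with a clear gap between the groups. It changed by -0.49 ± 0.10 (adjusted p = 0.0051, limma), and by -0.30 after quantile normalization (adjusted p = 0.026, limma). Ndufs4, an accessory subunit whose loss gives mice an encephalopathy like Leigh syndrome, was named after its values were seen. It stood at 5.09, 5.24, 4.99 and 4.89 with DMSO and at 4.80, 4.63, 4.60 and 4.56 with DOM, a change of -0.41 ± 0.11, and it passed under both scalings. Ndufv3, also an accessory subunit there, was the 1 member that passed as higher, and did so only through its dimmer probe: that probe changed by 0.47 ± 0.15 (adjusted p = 0.044, limma) and its brightest probe by 0.14 ± 0.10 (adjusted p = 0.28, limma).

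Of the 7 core catalytic subunits, 1 passed. Ndufv2, which holds an iron-sulfur cluster near the flavin, measured 6.11, 6.30, 6.21 and 6.18 with DMSO and 5.95, 5.86, 5.75 and 5.79 with DOM. The groups did not overlap, and the change was -0.36 ± 0.09 (adjusted p = 0.017, limma), or -0.19 after quantile normalization (adjusted p = 0.12, limma). The other core subunits lay between -0.27 (Ndufs7, adjusted p = 0.11, limma) and -0.03 (Ndufs1), and after quantile normalization 3 of the 7 lay above 0. Between them stood Ndufs8 (-0.20), which carries iron-sulfur clusters on the way to ubiquinone, and Ndufs3 (-0.11), and neither passed. The NADH-binding flavoprotein Ndufv1 changed by -0.11 ± 0.09, with DOM arrays from 6.52 to 6.72 and DMSO arrays from 6.66 to 6.75 overlapping.

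The membrane arm, which pumps the protons, gave no gene past the test with DOM in the main fit (background 38.7%). A difference between the arms was not tested. The 10 distal Ndufb genes of the membrane arm all lay below 0, with a median of -0.16. After quantile normalization 5 of 10 did, with a median of 0.02. Ndufb2 had the lowest value there (-0.41 ± 0.15, adjusted p = 0.060, limma), with 4.71 to 5.11 on the DOM arrays against 5.16 to 5.67 with DMSO, and Ndufb11 followed at -0.29 (adjusted p = 0.087, limma). The 9 proximal genes had a median of -0.10, or 0.04 after quantile normalization, where Ndufc1 passed as higher. Among the 5 other accessory genes, Ndufa5, also named after its values were seen, passed as lower through its dimmer probe (-0.29 ± 0.09, adjusted p = 0.042, limma) but not through its brightest (-0.17 ± 0.12, adjusted p = 0.29, limma). Ndufa6, an accessory subunit of the LYR-motif family, went the other way: 5.69, 5.97, 5.71 and 5.72 with DMSO and 6.13, 6.08, 5.77 and 6.25 with DOM. Its groups overlapped and its change of 0.28 ± 0.13 did not pass (adjusted p = 0.11, limma), but after quantile normalization it stood at 0.48 and passed (adjusted p = 0.012, limma).

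Complex II, which is also an enzyme of the TCA cycle, split by subunit. Sdhd, 1 of the membrane anchors, measured 5.98, 5.67, 5.62 and 5.63 with DMSO and 5.41, 5.33, 5.27 and 5.24 with DOM. All DOM arrays lay below all DMSO arrays, with a change of -0.41 ± 0.11 (adjusted p = 0.020, limma) and of -0.29 after quantile normalization (adjusted p = 0.049, limma). The catalytic flavoprotein Sdha changed by 0.03 ± 0.12 and the iron-sulfur protein Sdhb by -0.14 ± 0.10, and neither passed. Sdhc, the other anchor, had the widest spread of all members among the DMSO and DOM arrays (SD 0.35 and 0.48). Its brightest probe changed by -0.01 ± 0.25 and its second by 0.19 ± 0.10, and the second passed as higher only after quantile normalization.

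**Figure D4:**
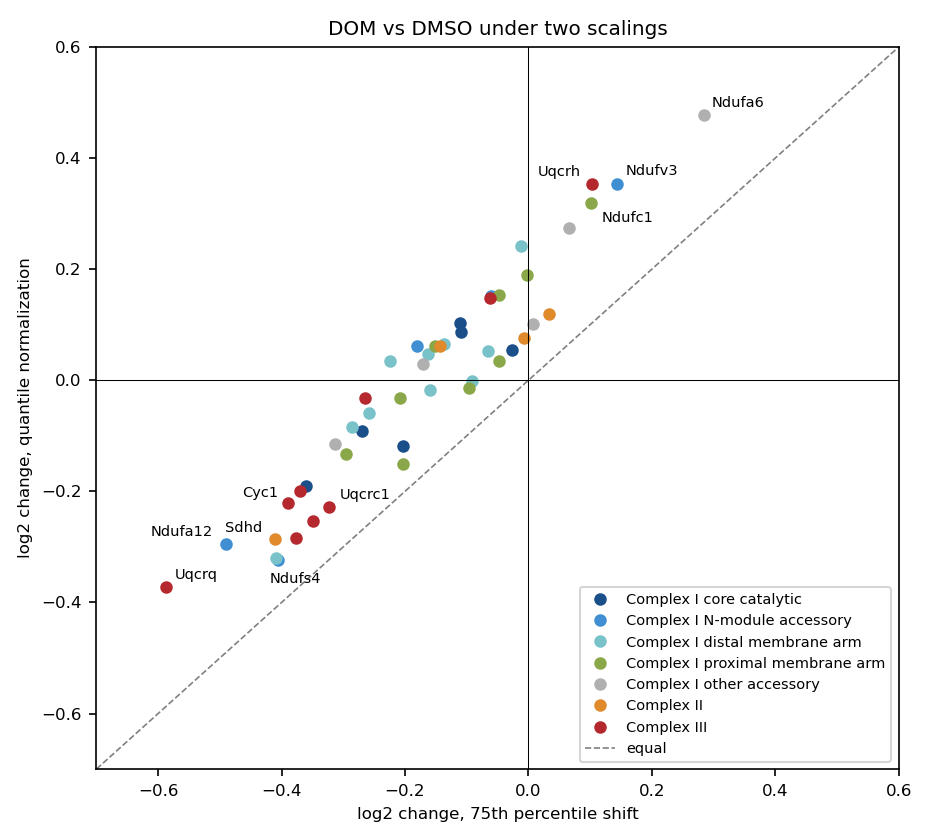
Change of each of 48 genes with DOM against DMSO after the 75th percentile shift (x) and after quantile normalization (y), both on the log2 scale and coloured by role. All points lie above the dashed line of equal values, so quantile normalization moved every gene upward; Uqcrq, Ndufa12, Sdhd, Ndufs4 and most of complex III stay below 0, and the median over all 49 genes moves from -0.16 to 0.03.

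After quantile normalization 8 members passed with DOM as lower through any probe (background 17.3%) and 5 as higher (background 22.9%). By brightest probes, 10 members passed as lower with DOM under the 75th percentile shift, and 7 of these also passed after quantile normalization: Ndufa12, Ndufs4, Sdhd, Uqcrc1, Uqcrc2, Uqcrfs1 and Uqcrq. The 4 that then passed as higher by their brightest probe were Ndufa6, Ndufc1, Ndufv3 and Uqcrh. Within the slides the members' median with DOM was -0.07, -0.35 and -0.11. Without DOM replicate 2 the members past the test fell from 12 to 7, and all genes past the test from 4641 to 3492.

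With DINCH no member was called (background 8.26%) and none passed at any fold (background 14.9%) in the main limma fit. Here 10 members (20.4%, background 34.4%) had an unadjusted p below 0.05. By direction alone 44 of 49 lay above 0 (89.8%, background 49.9%) with a median of 0.09 against -0.001 for all genes. The members share the same arrays, so their directions are not independent. Relative to the DMSO mean, the members' median on each array ran from -0.02 to 0.27 with DINCH and from -0.09 to 0.12 with DMSO. The arrays of these groups therefore overlapped. On 5 members every DINCH array lay above every DMSO array (10.2%, background 11.6%). After quantile normalization the median was 0.10, with 41 above 0, and 4 members passed as higher (Ndufa6, Ndufs7, Ndufs8 and Sdhc, background 8.66%). Here the direction did not turn with the scaling, but the size rested in part on 1 array: without DINCH replicate 1 the median was 0.043 with 35 of 49 above 0, and without DINCH replicate 3 or DMSO replicate 2 it was 0.140 and 0.137. The members' median was 0.26, 0.07 and 0.11 within the slides, highest on the first. MEHP, BDB and DINCH arrays lay in other rows of the slides than DMSO, so row and compound cannot be told apart for them.

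The highest changes with DINCH were those of Sdhc, Ndufs8 and Ndufa6, and none of them passed in the main fit. Ndufs8, a core subunit with iron-sulfur clusters, measured 4.33, 4.28, 4.15 and 4.05 with DMSO and 4.85, 4.52, 4.41 and 4.52 with DINCH. All DINCH arrays lay above all DMSO arrays, with a change of 0.38 ± 0.12 (adjusted p = 0.081, limma). Replicate numbers were taken as pairs here. With the number as a block 2 members passed as higher (background 10.4%): Ndufs8 (adjusted p = 0.041, limma) and, through its dimmer probe, Sdhc. Sdhc measured 4.10, 4.88, 4.62 and 4.29 with DMSO and 4.996, 4.999, 4.896 and 4.746 with DINCH, overlapping groups with a change of 0.44 ± 0.17. Ndufs7, which lies next to the ubiquinone site, changed by 0.30 ± 0.11, and Ndufa6 by 0.31 ± 0.10 (adjusted p = 0.092, limma). The lowest members with DINCH were Ndufb2 (-0.26 ± 0.14), Uqcrfs1 (-0.23 ± 0.16) and Ndufa8 (-0.19 ± 0.10). The value of Uqcrfs1 rested on DINCH replicate 1 at 4.74, with the others from 5.17 to 5.49, and without it the change was -0.07.

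With MEHP, BDB and DOS no member was called or passed in the main limma fit. For MEHP the background was 1.68% called and 3.01% passed, no member had an unadjusted p below 0.05 (background 21.6%), and the median was 0.004 against -0.01 for all genes. The 95% intervals of 48 of 49 members lay within 1.5-fold of no change. Ndufa7 had the highest value with MEHP (0.17 ± 0.08), before Ndufb8 (0.15) and Ndufs8 (0.12). Ndufb2 had the lowest (-0.18 ± 0.15), next to Ndufb11 (-0.13) and Ndufa8 (-0.12). For BDB the background was 0% under both rules, 4 members (8.16%, background 19%) had an unadjusted p below 0.05, and the median was -0.04 against -0.03 for all genes. Uqcrh had the lowest value with BDB, with 6.88, 6.57, 6.58 and 6.55 against 6.88 to 7.22 on the DMSO arrays. Its change of -0.38 ± 0.11 did not pass (adjusted p = 0.17, limma), and the BDB array at 6.88 met the DMSO range. Ndufa8, an accessory subunit of the proximal membrane arm, followed at -0.29 ± 0.10 with all 4 BDB arrays below the DMSO arrays (adjusted p = 0.21, limma). Ndufb2 was next (-0.25 ± 0.16), and the highest values were those of Sdhc (0.15), Cyc1 (0.14) and Ndufb8 (0.13). For DOS, with 3 arrays, the background was 0% under both rules and 1 member (2.04%, background 7.73%) had an unadjusted p below 0.05. The DOS median was 0.05 against -0.01 for all genes, but it moved with the arrays and the fit. It was 0.095 with the replicate number as a block (taken as pairs here), 0.118 with the slide as a block and 0.009 with normexp correction. Without DOS replicate 1 it was 0.005, without DMSO replicate 4 it was 0.019, and without DMSO replicate 2 it was 0.095. This last value and that of the replicate block are 1 result, because DMSO replicate 2 has no DOS partner. Ndufa7 had the highest value (0.28 ± 0.11, adjusted p = 0.67, limma), before Uqcr11 (0.25) and Ndufb8 (0.22). The lowest values with DOS were those of Uqcrfs1 (-0.18), Ndufa8 (-0.16) and Sdhc (-0.14). Ndufa8 was also among the lowest with DINCH, MEHP and BDB, but all these comparisons share the same DMSO arrays. All 49 DOS intervals lay within 1.5-fold.

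There were 2 pairs of compounds compared directly at the same dose and time, with p-values adjusted over both pairs together. DOM and DOS are both dioctyl esters and differ in the acid, a maleate against a succinate, that is, an unsaturated against a saturated core. Between them 1 member was called (2.04%, background 13.9%) and 5 passed (10.2%, background 19.3%), all 5 lower with DOM (background 10.5%): Uqcrq, Ndufa12, Sdhd, Uqcrb and Ndufb8. At an unadjusted p below 0.05 there were 18 members (36.7%, background 42.3%). On 26 members every DOM array lay below every DOS array (53.1%, background 20.8%), and 43 of 49 lay below 0 (87.8%, background 51.4%). The median difference was -0.21 against -0.01 for all genes, and -0.07 after quantile normalization, with all genes at 0.04 and 32 members below 0. All 49 members were among the brightest 2982 tested genes. Over those genes the median was -0.11, or 0.02 after quantile normalization, and the part of brightness was not tested. DOM, DOS and DMSO shared slide rows, and within the 2 slides that held both the members' median was -0.24 and -0.17.

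Ndufa12 differed most firmly between DOM and DOS. It measured 6.61, 6.59 and 6.59 with DOS, against the 5.95 to 6.12 given above with DOM. The difference was -0.55 ± 0.10 (adjusted p = 0.013, limma), and Ndufa12 also passed after quantile normalization (-0.37, adjusted p = 0.047, limma), as the single member to do so (background 9.2%). Uqcrq measured 8.28, 8.35 and 8.29 with DOS, again above every DOM array. It differed by -0.57 ± 0.11 (adjusted p = 0.019, limma) and was called through its second probe (-0.65). Ndufb8, a distal arm subunit, stood at 7.96, 7.73 and 7.70 with DOS and at 7.45, 7.45, 7.21 and 7.30 with DOM, a difference of -0.45 ± 0.12 that lay at the threshold (adjusted p = 0.049, limma). With the replicate number as a block (taken as pairs here), 2 members passed as lower (background 7.63%), Ndufa12 and Uqcrq. Leaving out single arrays gave between 1 and 4 members past the test and 0 or 1 called. All genes past the test then numbered 1104 to 2083, against 2307 in the main fit. Leaving out any array but DOM replicate 1 or DOM replicate 3 left no member called. For 35 of the 49 members the interval of the difference lay within 1.5-fold.

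MEHP, a phthalate monoester, and DINCH, a cyclohexane diester, differ in both ring and ester groups. No member was called (background 3.25%) or passed (background 7.54%) between them in limma, and 4 (8.16%, background 24.7%) had an unadjusted p below 0.05. The median difference was -0.11 against -0.01 for all genes, with 43 of 49 lower with MEHP (87.8%, background 51.9%), and -0.09 after quantile normalization. Without DINCH replicate 1 the median was -0.058 with 38 of 49 below 0, and with normexp correction it was -0.062. The lowest difference was that of Sdhc, which measured 5.16, 4.48, 4.23 and 4.41 with MEHP against the 4.746 to 4.999 given above with DINCH. The MEHP arrays spread widely and overlapped the DINCH arrays, and the difference of -0.34 ± 0.18 did not pass (adjusted p = 0.27, limma). For 48 of 49 members the interval lay within 1.5-fold.

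Other lists of the same pathway are given with DOM against the background over all genes, of which 19.8% passed as lower and 18.9% as higher (17.3% and 22.9% after quantile normalization). Complex IV, which passes electrons to oxygen, had 1 lower gene of 11 past the test and a median of -0.18, and complex V, the ATP synthase, 6 lower of 17 and a median of -0.23; after quantile normalization both medians were -0.01, with 1 gene of complex V still lower and 1 of complex IV now higher. TCA cycle enzymes had 8 lower of 14 (median -0.29) and mitochondrial ribosomal proteins, which translate the mitochondrially encoded subunits, 35 lower of 74 (median -0.30). Both stayed below 0 after quantile normalization, at -0.19 with 6 lower and at -0.22 with 27 lower. Of 24 assembly factors 7 were lower and 3 higher, with a median of -0.09, and of -0.07 after quantile normalization. Cycs, the cytochrome c that takes electrons from complex III, fell by 0.75 ± 0.11 (adjusted p = 0.0012, limma), and by 0.57 after quantile normalization.

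Among 12 regulators of mitochondrial biogenesis, 4 were lower with DOM, and 2 were lower and 1 higher with DINCH (background 7.42% lower and 7.46% higher). These genes were named after their values were seen. Nrf1, the factor of the motif counted above, was called lower with both, by -0.75 ± 0.17 with DOM and -0.74 ± 0.17 with DINCH, and Tfam, which maintains mitochondrial DNA, stood at -0.36 ± 0.09 and -0.46 ± 0.12 and passed with both. These comparisons share the DMSO arrays. Ppargc1a, a coactivator of respiratory genes, was called higher with DINCH (1.21 ± 0.20, adjusted p = 0.0085, limma), and changed by 0.20 ± 0.20 with DOM (adjusted p = 0.48, limma). After quantile normalization these 3 genes passed in the same comparisons and directions, and whether they bear on the members was not tested.

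**Figure D5:**
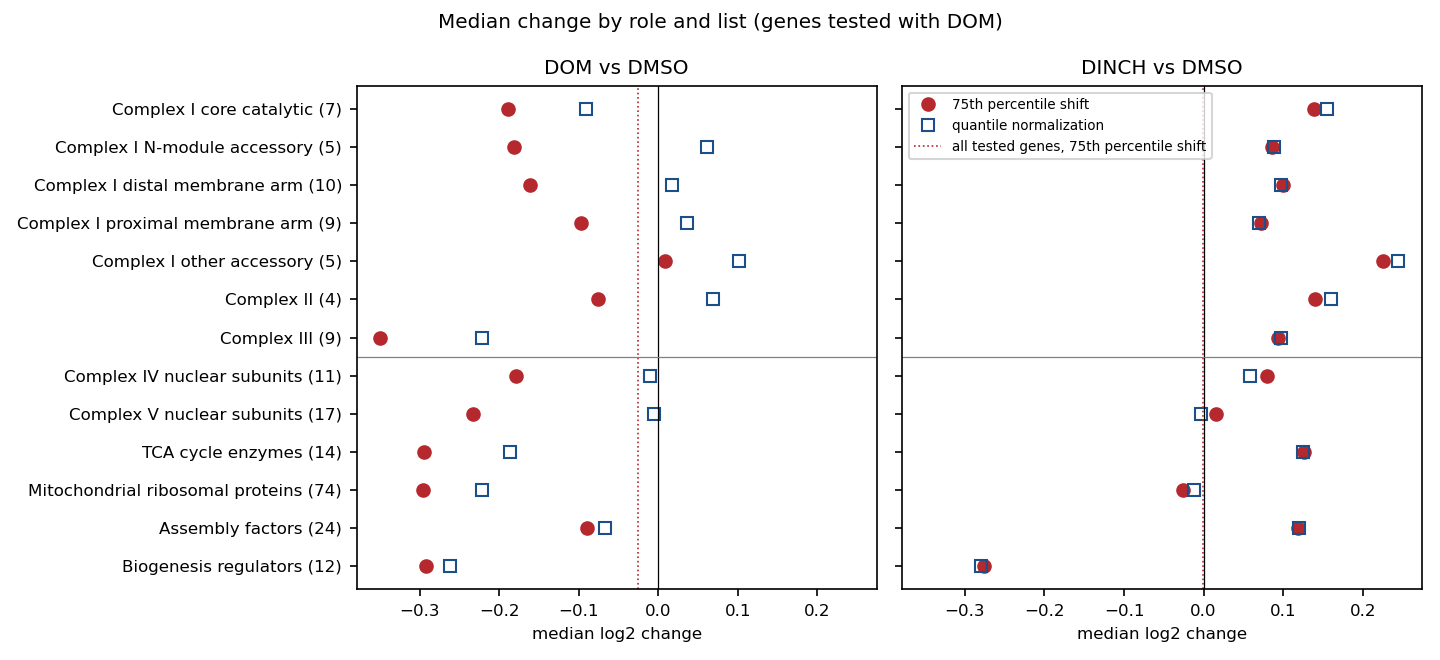
Median log2 change of each role of the 49 genes (above the line) and of other lists of the pathway (below it), with DOM (left) and DINCH (right), after the 75th percentile shift (filled circles) and quantile normalization (open squares); the number of genes tested with DOM is in brackets and the dotted line is the median of all tested genes. With DOM, complex III, TCA cycle enzymes, mitochondrial ribosomal proteins and biogenesis regulators lie at -0.19 or lower under both scalings, while the complex I roles and complex II lie between -0.09 and 0.10 after quantile normalization. With DINCH the scalings differ little, and only the median of complex V changes sign.

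The 12 genes with more than 1 probe allowed a check within the arrays. With DOM the probes of 10 of 12 genes changed in the same direction, and the widest spread between probes was 0.33, in Ndufv3. With DINCH, MEHP, BDB and DOS, where changes were small, 8 of 12 had 1 direction. The median SD of a member within a group ran from 0.07 with MEHP to 0.14 with DINCH.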

How the data were processed

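TM4 RNA was hybridized to Agilent 1-colour mouse arrays, 1 array per sample, in 6 groups (4 arrays each, 3 for DOS). The authors extracted spot intensities with Feature Extraction (version 11.5.1.1), which subtracts the background and detrends each array, and no scaling between arrays was applied to the deposited intensities. Log2 values that the authors had shifted to the 75th percentile and then centred on the median of every probe were deposited as well. Each array correlated with its own column of those log2 values at 0.9996 or more, and with other columns at 0.408 or less, and these values served as an alternative.

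Here log2 of the processed signal, with a floor of 1, was taken minus the array's 75th percentile over the 59305 non-control spots. Outlier spots (102 to 187 per array) were left out, no spot was saturated, and spots were averaged per probe. Ndufb2 has no value on DOS replicate 3, an outlier spot. To be tested, a probe had to exceed background clearly and reach the 20th percentile of signal on all arrays of either group compared. limma (version 3.58.1, R 4.3.3, with the data.table package, version 1.17.8) was fitted to the groups compared, with Benjamini-Hochberg adjustment over all tested probes, and over both pairs together for the comparisons between compounds. A gene passed at an adjusted p below 0.05 and was called with a change over 1.5-fold as well. Where a gene had several probes, its value is that of the brightest, and it was counted once if any probe passed. The fit was tested on simulated data. Figures were drawn with matplotlib (version 3.10.9, Python 3.11.15). The replicates are described as biological, and the p-values measure the spread between these arrays.

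With 1 exception that is not reported here, named with values are members called in any comparison, the 3 highest and 3 lowest for each compound, the Sdh genes, the core subunits of complex I, and Cyc1, Uqcrfs1, Uqcrc1 and Uqcrc2. Others were named after their values were seen. The members and lists were chosen with earlier results of these data known. Promoter windows came from RefSeq. The alternatives were quantile normalization, normexp correction (offset 50), other filters, blocks of slide or of replicate number, 1 fit for all groups, a variance trend, outlier spots kept, the brightest probe only, the authors' table, no fold limit, and each array left out in turn.

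Replicate numbers in the sample names were checked for pairing. Deviations of arrays with the same number from their group means correlated at 0.17 to 0.50 for DINCH with DMSO, 0.25 to 0.43 for BDB, 0.20 to 0.45 for DOS and 0.100 to 0.397 for DOM with DOS, and these were taken as pairs. For DOM with DMSO (0.04 to 0.43), MEHP with DMSO (-0.14 to 0.45) and MEHP with DINCH (-0.19 to 0.26) they were not. The rule was that every correlation lay over 0.1, which DOM with DOS met narrowly. All arrays of replicate 1 lay on slide 1 and all arrays of replicate 4 on slide 3. Pairs by culture and pairs by slide therefore cannot be told apart.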

Additional observations from a re-analysis of the deposited data

Results flagged for a closer look

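On 11 of 135 groups of 4 arrays (8.15%) the highest or lowest array stood apart from the other 3 by Dixon's criterion. The check covered the named members, not all 49. Chance gives about 1 in 20 independent groups, but these genes share the same arrays, so that rate is only a rough guide. Among the BDB arrays, replicate 1 was high for Uqcr11 (6.89, the others 6.59 to 6.61) and for Uqcrh (6.88, the others 6.55 to 6.58).

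Among the DMSO arrays, replicate 2 was high for Uqcrq (8.57, the others 8.21 to 8.27), Uqcr11 (6.97, the others 6.51 to 6.55) and Ndufa6 (5.97, the others 5.69 to 5.72), and replicate 1 was high for Sdhd (5.98, the others 5.62 to 5.67). Uqcrq and Sdhd are genes that were lower with DOM. With single DMSO or DOM arrays left out the change of Uqcrq with DOM lay between -0.66 and -0.50 and it passed each time. That of Sdhd lay between -0.45 and -0.32, and Sdhd no longer passed without DOM replicate 2 (adjusted p = 0.051, limma) or DOM replicate 4 (adjusted p = 0.053, limma).

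Among the DOM arrays, replicate 2 was high for Cyc1 (5.93, the others 5.81 to 5.82), replicate 1 was high for Ndufa8 (5.03, the others 4.43 to 4.51), and replicate 3 was low for Uqcrc1 (4.05, the others 4.14 to 4.15) and for Uqcrh (6.95, the others 7.19 to 7.20). With DINCH, replicate 1 was high for Ndufv3 (6.82, the others 6.40 to 6.46).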

How the results depend on the processing

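The members lower with DOM depended on the scaling: after quantile normalization their median change was 0.0295, 0 were called and 13 passed, and between DOM and DOS the median was -0.0658, 0 were called and 1 passed. No other alternative changed the sign of these medians. With any probe counted, Uqcrq passed with DOM in all 19 alternatives, Ndufa12 in 18 and Sdhd in 15 of 19, and Ndufa12 differed between DOM and DOS in 17 of 18.

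Members past the test with DOM numbered 1 with no filter on dim probes, which tests more probes. They numbered 20 with all groups in 1 fit and 19 with a variance trend, and 12 were called with no fold limit. Over all genes 4641 passed in the main fit, 2032 with no filter, 5576 with all groups together and 4926 with the trend. With DINCH, where none passed in the main fit, there were 4 after quantile normalization and 7 with all groups in 1 fit. There were 3 with the slide as a block and 2 with a variance trend. All genes past the test with DINCH went from 1770 to 1954, 3129, 2358 and 2175, in that order. With BDB 1 member passed with all groups in 1 fit, where 373 of all genes passed, against 0 in the main fit. Between DOM and DOS, where 5 passed, there were 0 with no filter, 2 with detection on 1 array and 17 with all groups in 1 fit. There were 12 with a variance trend and 3 in the authors' table. Over all genes 2307 passed there in the main fit, and 51, 1086, 3866, 2991 and 2281 in these, in the same order. The number called there was 0 with no filter, with detection on 1 array and with the brightest probe only. It was 2 with the slide as a block and 5 with no fold limit. All genes called there went from 1655 in the main fit to 51, 993, 1487 and 2064, the last with the slide as a block. Between MEHP and DINCH 1 passed with all groups in 1 fit, with a variance trend and with the slide as a block. All genes past the test in these numbered 1536, 1235 and 911, against 893 in the main fit. The causes were not tested.

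With the replicate number as a block, 2 members passed with DINCH and 2 between DOM and DOS, and no other count moved by over 1.5 times. The median with DOS moved to 0.095, as it did without DMSO replicate 2, which has no DOS partner.

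Leaving out each array in turn gave 7 to 13 members past the test with DOM (7 without DOM replicate 2). There was 1 called throughout, with medians from -0.2064 to -0.1098. Over all genes 3492 (without DOM replicate 2) to 4399 then passed, against 4641 in the main fit. Between DOM and DOS leaving out arrays gave 1 to 4 members past the test, 0 or 1 called and medians from -0.2437 to -0.1678. Over all genes 1104 to 2083 passed there, against 2307 in the main fit. Between MEHP and DINCH 0 or 1 member passed, where all genes past the test numbered 443 to 931. With 3 or 4 arrays a group, changes of single members below about 1.5-fold were often within their intervals.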
